A study of Homo sapiens with 9 samples.

Results

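The annexins are a family of proteins that bind acidic phospholipids of cell membranes, most of them only when calcium is present. The genes described here are the 10 whose platform symbol is ANXA1, ANXA2, ANXA3, ANXA4, ANXA5, ANXA6, ANXA7, ANXA9, ANXA10 or ANXA11. Each was represented by 1 probe set, so 10 probe sets stood for 10 of the 10916 named genes that passed a filter on dim probe sets (14884 genes were named in all). All 10 annexins passed it, and none read below the median intensity of any of the 8 arrays used. Other annexin genes were not analysed here. The members were picked out by gene name, but with earlier results of these data known.

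The RNA came from A549, an established line of human non-small-cell lung cancer with epithelial features, kept for 5 days in DMEM with 10% fetal bovine serum. The low-attachment group with FP001 (3 arrays) was grown on low-attachment plates in medium with FP001 at 0.015% (w/v), an additive whose nature the labels do not give. The low-attachment group (3 arrays) was on the same kind of plate in normal medium, which received Milli-Q water in place of FP001, and the attachment group (2 arrays used) was on ordinary plates in that normal medium. All groups are the same cell line with no genetic change stated. The labels do not say whether replicates were separate cultures, and the p-values thus reflect a spread between arrays that may be technical. Since plate and additive differed together between the FP001 and attachment groups, their effects cannot be told apart in that comparison.

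Attachment replicate 1 was left out of every value below except where named, since its rank correlation with the other arrays reached no more than -0.00191, against 0.961 to 0.985 between any 2 of the other 8. Median intensities of those 8 arrays were 23.3 to 24.1. Each value is a linear intensity of 1 probe set on 1 array, and intensities of different probe sets are not comparable with each other. Of 6 epithelial markers 5 were tested, with a summed intensity of 5127 to 5686 with FP001, 4407 to 4746 on low-attachment plates in normal medium and 4203 to 4359 on attachment plates, most of it from KRT18. Singly they went different ways against attachment plates: KRT19 was called as higher with FP001 (1.55 on the log2 scale, adjusted p = 0.00135) and in normal medium (1.03, 0.0158), and KRT18 with FP001 (0.30, 0.00917). EPCAM was called as lower with FP001 (-0.53, 0.042) and KRT7 in normal medium (-0.54, 0.0422), calls lost in 6 and 5 of 8 fits that left out 1 array, and KRT8 was not called. The calls of KRT19 in normal medium and of KRT18 with FP001 were each lost in 1 of 8 such fits. Of 6 leukocyte markers 2 were tested (CD14 and CD68), with sums of 552.1 to 778.3, 495.5 to 655.8 and 406.2 to 484.4 in the same groups. CD68 was called as higher with FP001 than on attachment plates (0.74, adjusted p = 0.0146), a call lost in 2 of 8 such fits, while CD14 had a log2 fold change of -0.12 (0.61). Of 5 endothelial markers 3 had a named probe set, and none of these passed the filter. Of 6 fibroblast markers 2 had a named probe set, and 1 (LUM) passed. The other markers of these lists were not measured under a name here. No named marker was listed at 0 throughout a group. The part of such markers in the annexin values was not tested. In bulk RNA, fewer cells of a type and less RNA per cell cannot be told apart.

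Annexins share a conserved core that docks on the membrane through bound calcium, and differ in their amino-terminal tails, which carry sites for partners such as the S100 proteins. They are known for organising membrane domains, for vesicle traffic and for patching wounds of the plasma membrane, and several are abundant in lung epithelium. ANXA9 and ANXA10 are known to bind calcium poorly or not at all.

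Of the 10 annexins, ANXA3 and ANXA6 fell on low-attachment plates in normal medium and ANXA6 fell on low-attachment plates with FP001, each against attachment plates. No annexin passed as higher than on attachment plates without further scaling. Between the low-attachment groups ANXA3 had the largest difference of the 10, at 1.90-fold higher with FP001. This difference did not pass in the main limma fit (adjusted p = 0.157). It passed in a limma fit that paired same-numbered arrays (0.00226), but that pairing was inferred from these arrays and is not in the labels. ANXA1, ANXA2, ANXA5 and ANXA11 differed by no more than 0.18 on the log2 scale in any comparison.

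**Figure D1:**
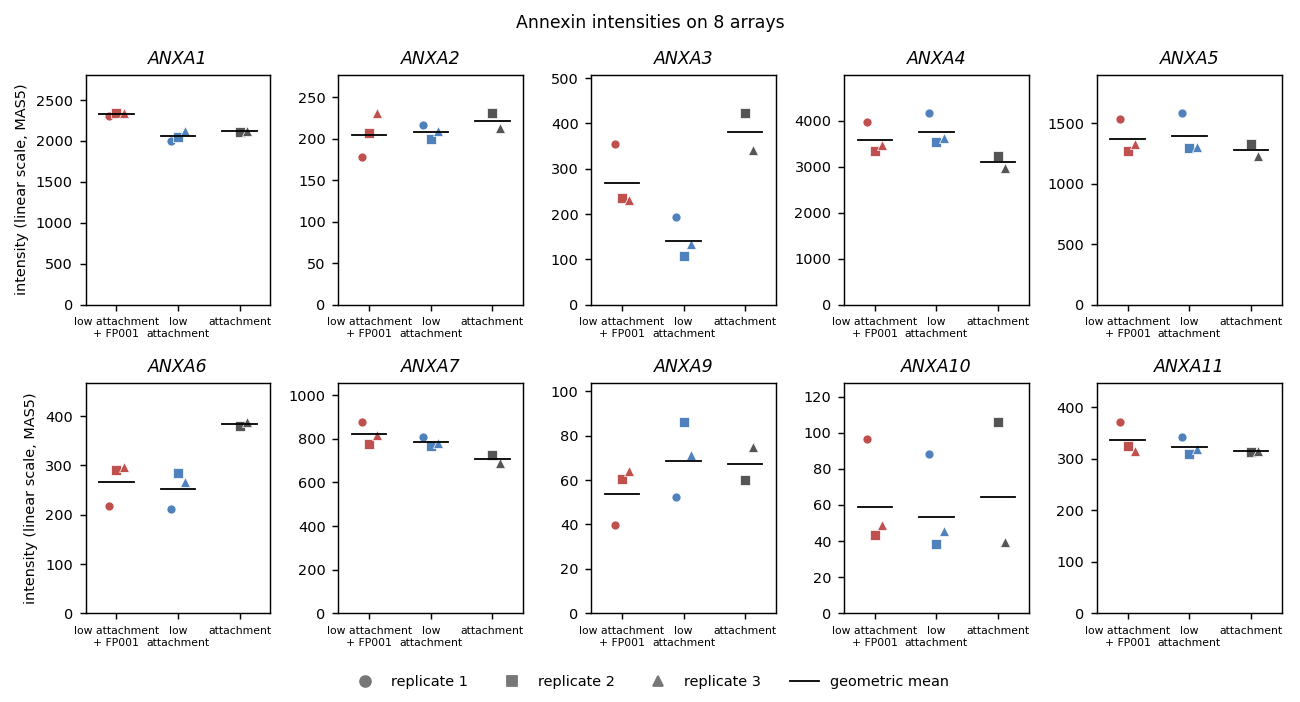
Intensity (linear scale, MAS5) of each of the 10 annexin genes on the 8 arrays, with the low-attachment group with FP001 at the left of each panel, the low-attachment group in the middle and the attachment group at the right. Symbols mark the replicate number and bars the geometric mean. ANXA3 was at 107.8 to 193.1 on low-attachment plates in normal medium, below all arrays of the other groups, and ANXA10 was highest on replicate 1 of both low-attachment groups and on attachment replicate 2.

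ANXA3, known as lipocortin III and first studied as an inhibitor of phospholipase A2, read 355.1, 235.1 and 231.4 with FP001 (replicates 1 to 3). It read 193.1, 107.8 and 134.7 on low-attachment plates in normal medium, and 423.2 and 341.5 on attachment replicates 2 and 3. Every array of the low-attachment group lay below every other array, while the highest FP001 array lay above the lower attachment array. The geometric means were 268.3 with FP001, 141.0 in normal medium and 380.2 on attachment plates, with SDs of 0.35, 0.42 and 0.22 on the log2 scale (n = 3, 3 and 2).

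On low-attachment plates in normal medium ANXA3 fell 2.70-fold against attachment plates (log2 fold change -1.43 ± 0.24 SE, adjusted p = 0.00522). This was the 18th lowest log2 fold change of the 10916 genes tested. Without attachment replicate 2 the log2 fold change was -1.28 and missed the threshold (adjusted p = 0.0646). In the moderated F-test of the 3 groups together, ANXA3 passed with an adjusted p of 0.00733.

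With FP001 against attachment plates the log2 fold change of ANXA3 was -0.50 ± 0.24 (95% interval -1.03 to 0.03), which did not pass (adjusted p = 0.162). The difference between these effects is itself a comparison, of the low-attachment group with FP001 against that without, where ANXA3 was 1.90-fold higher (log2 fold change 0.93 ± 0.21, 95% interval 0.45 to 1.40). Only 6 of the 10916 genes had a higher log2 fold change there. The unadjusted p was 0.0013 and the adjusted p 0.157, so without regard to the replicate number this difference did not pass.

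Replicate numbers were taken to pair the low-attachment arrays, because same-numbered arrays deviated together from their group means (correlations of 0.231 to 0.483). Arrays of unlike number correlated at -0.353 to 0.133. The blocked p-values thus depend on a pairing read from these same data. Within the pairs ANXA3 was 1.84-fold, 2.18-fold and 1.72-fold higher with FP001 for replicates 1, 2 and 3. Every FP001 array lay above every low-attachment array in normal medium, so any pairing would give the same direction. With the replicate number as a block, ANXA3 was called as higher with FP001 than in normal medium (log2 fold change 0.93 ± 0.10, adjusted p = 0.00226) and as lower with FP001 than on attachment plates (-0.72 ± 0.12, adjusted p = 0.0019). In the same blocked fit the fall in normal medium was -1.65 ± 0.12 (adjusted p = 1.56e-05). The attachment arrays showed no such pairing by number. Attachment replicate 2 correlated at -0.205 with replicate 2 of the low-attachment group and at -0.256 with that of the FP001 group. With replicate 1 of those groups it correlated at 0.269 and 0.207. Attachment replicate 3 correlated at 0.138 and 0.00762 with their replicate 3, but at 0.205 and 0.256 with their replicate 2. The blocked values against attachment plates thus rest on numbers that may pair nothing. A blocked fit of the 6 low-attachment arrays alone, chosen after seeing the data, gave 0.93 ± 0.08 (adjusted p = 8.68e-05). The 3 comparisons share arrays and are not independent of each other.

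ANXA6, the annexin with a duplicated core, is known for its work at endosomes and at contacts of the membrane with the actin cytoskeleton. It read 218.2, 290.3 and 296.3 with FP001, 212.1, 284.8 and 265.4 on low-attachment plates in normal medium, and 379.4 and 388.7 on the attachment plates. The 6 low-attachment arrays all lay below both attachment arrays, and the groups with and without FP001 overlapped. Replicate 1 was the lowest array of each low-attachment group.

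ANXA6 fell 1.52-fold on low-attachment plates in normal medium (log2 fold change -0.61 ± 0.15, adjusted p = 0.0307) and 1.45-fold in the FP001 group (-0.53 ± 0.15, adjusted p = 0.0351), both against the same 2 attachment arrays. FP001 over normal medium gave 0.08 ± 0.14 (95% interval -0.23 to 0.38, adjusted p = 0.868). The fall in normal medium missed the threshold without attachment replicate 2 or 3 (adjusted p = 0.142 and 0.145) or without low-attachment replicate 1 or 3 (0.0679 and 0.0576). The fall with FP001 missed it without attachment replicate 2 or 3 (0.142 and 0.136) or without FP001 replicate 1 or 2 (0.0792 and 0.0507). With every kept probe set tested, named or not, the adjusted p was 0.0705 in normal medium and 0.0613 with FP001.

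Promoter sequences are shown for the 2 annexins called against attachment plates and for ANXA2, the 1 member whose window held an AP-1 motif. Each window runs from 250 bases before to 50 bases after a start site, 5′ to 3′ on the gene's strand, from RefSeq on GRCh38.p14: chr4:78551520-78551819 on the plus strand for ANXA3, chr5:151157730-151158029 on the minus strand for the upstream of the 2 starts of ANXA6, and chr15:60397937-60398236 on the minus strand for ANXA2. Capitals mark the motifs searched on both strands, which were AP-1 (TGANTCA), EGR1 (GCGNGGGCG), SP1 (GGGCGG) and the TATA box (TATAAA); EGR1 and SP1 matches can overlap each other.
ANXA3: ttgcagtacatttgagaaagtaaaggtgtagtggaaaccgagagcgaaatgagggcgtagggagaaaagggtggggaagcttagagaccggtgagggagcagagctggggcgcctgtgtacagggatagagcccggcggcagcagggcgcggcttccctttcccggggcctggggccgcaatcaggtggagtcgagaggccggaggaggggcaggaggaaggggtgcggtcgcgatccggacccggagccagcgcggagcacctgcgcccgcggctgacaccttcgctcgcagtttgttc
ANXA6: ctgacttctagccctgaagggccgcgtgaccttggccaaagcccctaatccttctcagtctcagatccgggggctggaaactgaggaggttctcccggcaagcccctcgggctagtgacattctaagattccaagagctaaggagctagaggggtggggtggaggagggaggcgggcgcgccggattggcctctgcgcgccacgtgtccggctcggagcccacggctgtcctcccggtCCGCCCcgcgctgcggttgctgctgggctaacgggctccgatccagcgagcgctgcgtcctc
ANXA2: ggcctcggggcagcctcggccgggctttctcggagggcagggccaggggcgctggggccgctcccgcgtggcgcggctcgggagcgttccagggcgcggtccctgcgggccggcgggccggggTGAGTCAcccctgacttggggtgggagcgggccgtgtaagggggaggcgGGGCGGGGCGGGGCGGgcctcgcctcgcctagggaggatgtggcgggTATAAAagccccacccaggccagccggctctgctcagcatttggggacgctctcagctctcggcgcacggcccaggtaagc
In the ANXA3 window none of the 4 motifs was present. The ANXA6 window held 1 SP1 motif, on the opposite strand and 12 bases before the start. The ANXA2 window held an AP-1 motif 127 bases before the start, 3 SP1 motifs at 78, 73 and 68 bases before it, each overlapping the next by 1 base, and a TATA box at 31 bases before it. All 10 annexins matched at least 1 window (14 windows in all), of which AP-1 was found for 1 annexin, EGR1 for 0, SP1 for 6 and TATA for 4. These counts are of genes, some with more than 1 window. Among 35116 windows of the same length, 7.71% held the AP-1 motif, 9.43% EGR1, 45.0% SP1 and 11.5% TATA. Those shares are per window, so they are not a like measure for the counts of genes. A match is a description of the letters and not a binding site, and a window with no match says nothing of the factor.

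Among all genes tested, 10.1% were called between low-attachment and attachment plates in normal medium (5.76% as lower), against 2 of the 10 annexins, both lower. Between FP001 and attachment plates 19.5% of all genes were called (11.4% as lower), against 1 of 10 annexins. Between the low-attachment groups with and without FP001, 0.11% of all genes were called and 0 of 10 annexins by limma. At an unadjusted p under 0.05 it was 2 of 10 annexins (ANXA1 and ANXA3), against 11.6% of all genes. With the replicate block 1.3% of all genes and 1 annexin, ANXA3, were called in that comparison, and in the block of the 6 low-attachment arrays alone 4.27% of all genes and 2 annexins, ANXA1 and ANXA3. Against attachment plates the block called 12.6% of all genes in normal medium and 21.7% with FP001, among them ANXA3 and ANXA6 in both. In the F-test 14% of all genes were called, against 2 of 10 annexins. Against attachment plates and in the F-test, 1 or 2 called among 10 members is near these shares.

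The median log2 fold change of the 10 annexins was -0.0047 in normal medium and -0.0098 with FP001 against attachment plates, and 0.061 for FP001 over normal medium. The medians of all genes tested were 0.0077, 0.018 and 0.0058. By size alone, the median absolute log2 fold change was 0.14, 0.17 and 0.07 for the annexins and 0.16, 0.20 and 0.10 for all genes, in the same order. Groups did not overlap for 4, 4 and 2 of the 10 annexins in the same comparisons, against 45.6%, 52.8% and 17.5% of all genes.

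**Figure D2:**
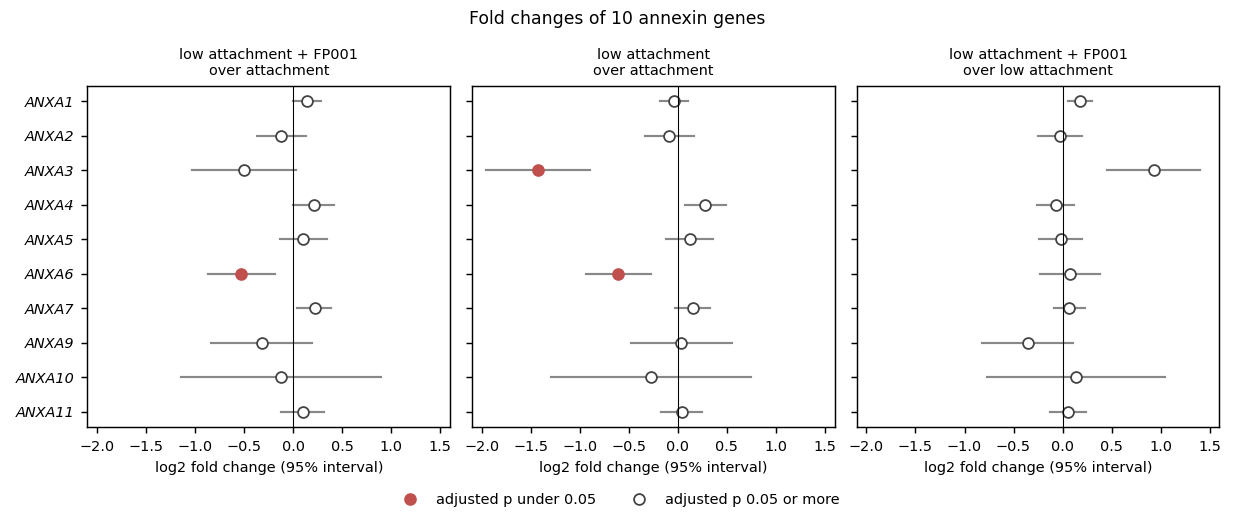
Log2 fold changes of the 10 annexin genes (points) with 95% intervals (lines) in the comparisons of FP001 with attachment, low attachment with attachment, and FP001 with low attachment in normal medium, from the limma fit without a block. Filled points passed an adjusted p of 0.05: ANXA3 at -1.43 and ANXA6 at -0.61 in normal medium, and ANXA6 at -0.53 with FP001.

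Genes whose levels followed ANXA3 most closely were sought by the root-mean-square difference between mean-centred log2 intensities over the 8 arrays. The nearest 5 of 10915 genes were MMP24 (difference 0.28), GDF15 (0.29), CXCL5 (0.30), MOB3B (0.32) and RASGRF2 (0.34), against a median of 0.67 over all genes. MMP24 encodes a membrane-type metalloprotease, GDF15 a stress cytokine and CXCL5 a chemokine that attracts neutrophils. GDF15 read 751.9, 699.7 and 806.2 with FP001, 436.0, 384.8 and 513.4 in normal medium, and 1142 and 929.4 on attachment plates. CXCL5 read 3563, 2185 and 2475 with FP001, 2351, 1400 and 1389 in normal medium, and 3571 and 2191 on attachment plates. As in ANXA3, the normal-medium low-attachment group was the lowest by its mean in both. The groups of CXCL5 overlapped, however, and it passed in no comparison by limma (adjusted p from 0.108 to 0.895). Of the other annexins ANXA10 was the closest to ANXA3 (0.58, rank 909 of the 10915 genes) and ANXA6 followed (0.61, rank 1695), while ANXA9 was the farthest (0.86, rank 10681). The likeness is a description over the same 8 arrays, with no test.

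**Figure D3:**
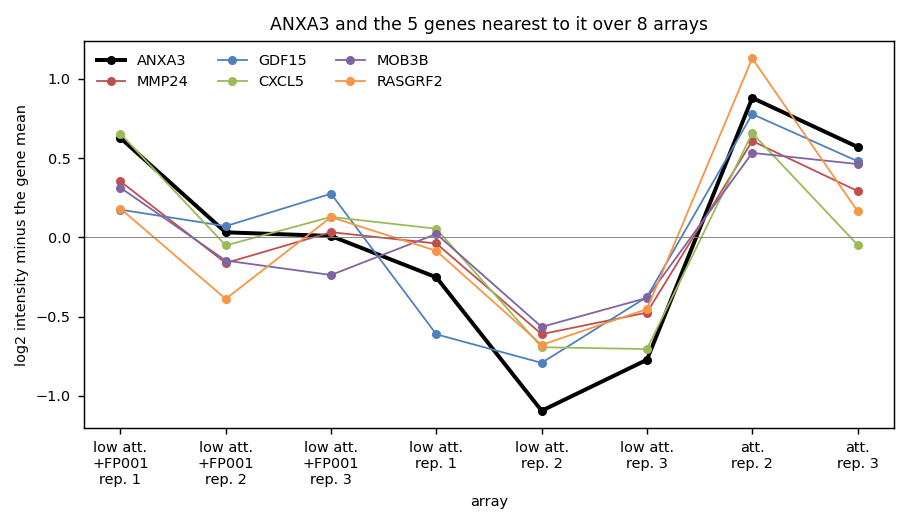
Log2 intensity minus the gene's own mean (vertical axis) on each of the 8 arrays (horizontal axis) for ANXA3 and its 5 nearest genes. ANXA3 (thick line) was lowest on low-attachment replicate 2, at 107.8, and highest on attachment replicate 2, at 423.2. Lines join arrays for reading only.

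ANXA1, which restrains phospholipase A2 and is a ligand of formyl peptide receptors that dampens inflammation, read 2308, 2339 and 2343 with FP001. It read 2003, 2046 and 2125 on low-attachment plates in normal medium and 2105 and 2128 on attachment plates. The FP001 arrays lay above all 5 other arrays, by a small margin. With FP001 over normal medium the log2 fold change was 0.18 ± 0.06 (95% interval 0.06 to 0.30, unadjusted p = 0.00891, adjusted p = 0.276), or 1.13-fold. The same-numbered pairs gave 1.15-fold, 1.14-fold and 1.10-fold. With the replicate block over 8 arrays the adjusted p was 0.118, and in the blocked fit of the 6 low-attachment arrays alone ANXA1 was called (0.18 ± 0.04, adjusted p = 0.0417). Against attachment plates its log2 fold changes were 0.14 ± 0.06 with FP001 (adjusted p = 0.143) and -0.04 ± 0.06 in normal medium (adjusted p = 0.724; 0.03 after quantile normalization).

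ANXA2, which joins S100A10 in a complex that promotes plasmin formation at the cell surface, read 178.2, 206.7 and 231.1 with FP001, 216.2, 199.6 and 208.9 in normal medium, and 230.6 and 212.4 on attachment plates. The 3 groups overlapped. Its log2 fold changes against attachment plates were -0.12 ± 0.11 with FP001 (95% interval -0.37 to 0.13) and -0.09 ± 0.11 in normal medium (-0.34 to 0.16). ANXA2 has processed pseudogenes of nearly the same sequence, ANXA2P1, ANXA2P2 and ANXA2P3, each with a probe set of its own here, and how transcripts of ANXA2 divide among these probe sets was not tested. ANXA2P2 read 6203, 6104 and 5517 with FP001, 5739, 5633 and 5604 in normal medium, and 5700 and 5665 on attachment plates. The ANXA2 value is therefore uncertain as a measure of the gene. None of the 3 pseudogene probe sets passed in any comparison, with adjusted p from 0.123 to 0.965.

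ANXA4 and ANXA7 are linked to secretion, ANXA4 at the membranes of epithelial cells and ANXA7 (synexin) in the fusion of granules. ANXA4 read 3967, 3328 and 3468 with FP001, 4166, 3533 and 3612 in normal medium, and 3233 and 2972 on attachment plates, so all 6 low-attachment arrays lay above both attachment arrays. Its log2 fold changes against attachment plates were 0.21 ± 0.10 with FP001 (adjusted p = 0.15) and 0.28 ± 0.10 in normal medium (adjusted p = 0.0927). ANXA7 read 878.0, 777.5 and 816.0 with FP001, 807.2, 766.9 and 782.3 in normal medium, and 727.1 and 688.8 on attachment plates, with no overlap between either low-attachment group and the attachment group. Its log2 fold changes were 0.22 ± 0.08 with FP001 (adjusted p = 0.0796) and 0.15 ± 0.08 in normal medium (adjusted p = 0.261). Neither gene passed without further scaling. After quantile normalization, ANXA4 was called with FP001 (0.34 ± 0.10, adjusted p = 0.0396) and in normal medium (0.39 ± 0.10, 0.036), ANXA7 with FP001 (0.28 ± 0.08, 0.0319) and ANXA1 with FP001 (0.22 ± 0.06, 0.0302), each as higher than on attachment plates. That scaling called 20.2% of all genes with FP001 and 10.3% in normal medium. In that scaling ANXA3 and ANXA6 kept their calls in normal medium, at log2 fold changes of -1.38 and -0.56.

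ANXA5, the phosphatidylserine binder used to stain dying cells, read 1535, 1268 and 1329 with FP001, 1586, 1297 and 1308 in normal medium, and 1327 and 1233 on attachment plates. Its log2 fold changes against attachment plates were 0.10 ± 0.11 with FP001 (95% interval -0.14 to 0.34) and 0.12 ± 0.11 in normal medium (-0.12 to 0.36). ANXA11, whose long tail binds S100A6 and which tethers RNA granules to lysosomes, read 372.2, 324.1 and 315.1 with FP001, 343.2, 309.97 and 318.7 in normal medium, and 313.5 and 315.6 on attachment plates. Its log2 fold changes were 0.10 ± 0.10 with FP001 (95% interval -0.12 to 0.31) and 0.04 ± 0.10 in normal medium (-0.17 to 0.25). The intervals of ANXA5 and ANXA11 reach no further than 0.36 from 0, so larger shifts of either gene lie outside them.

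ANXA9 read 39.9, 60.3 and 63.9 with FP001, 52.2, 86.2 and 71.4 in normal medium, and 59.9 and 74.9 on attachment plates. It was the only annexin lower with FP001 than in normal medium by more than 0.1 on the log2 scale (-0.35 ± 0.21, 95% interval -0.82 to 0.11, adjusted p = 0.555). The same-numbered pairs gave ratios of 0.765, 0.699 and 0.895, lower with FP001 in 3 of 3, and with the replicate block the adjusted p was 0.16. Replicate 1 was the lowest array of both low-attachment groups.

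ANXA10, an annexin best known from the stomach lining, varied between replicates more than between conditions. It read 96.5, 43.5 and 49.1 with FP001, 88.0, 38.3 and 45.4 in normal medium, and 106.1 and 39.3 on attachment replicates 2 and 3. In each group 1 array was high, and the groups overlapped throughout. The SDs on the log2 scale were 0.62, 0.63 and 1.01, against 0.01 to 0.04 for ANXA1. Its log2 fold change in normal medium against attachment plates was -0.27 ± 0.46 (95% interval -1.29 to 0.75), which became 0.44 when attachment replicate 2 was left out and -0.99 when attachment replicate 3 was. LUM, a fibroblast marker, was highest within each group on the same 3 arrays. It read 436.5, 79.0 and 103.4 with FP001, 246.6, 24.01 and 41.5 in normal medium, and 93.3 and 28.2 on attachment plates. Its value on attachment replicate 2 (93.3) was thus below that on FP001 replicate 3 (103.4). Of the 2 fibroblast markers with a named probe set, only 1, LUM, passed the filter, so this likeness is of 1 gene. The part of fibroblast-type RNA in the ANXA10 values was not tested. Within pairs of the same number ANXA10 was 1.10-fold, 1.14-fold and 1.08-fold higher with FP001 than in normal medium, and in the blocked fit of the 6 low-attachment arrays it did not pass (0.14 ± 0.09, adjusted p = 0.439).

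S100 proteins are small calcium-binding proteins, several of which dock on annexin tails. Of a list of 12 S100 genes, 11 were tested. On low-attachment plates in normal medium 3 rose and 8 did not pass (list median log2 fold change 0.32, against 0.01 for all genes). With FP001 4 rose and 7 did not pass (median 0.35, against 0.02), and none fell in either comparison. Between FP001 and normal medium none passed, and the lowest unadjusted p was 0.104 (list median 0.03). The share of all genes called as higher was 4.31% in normal medium and 8.08% with FP001. This list and those below were chosen with earlier results of these data known. Their counts and medians beside those of all genes thus give no result about any list.

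S100A10, the partner of ANXA2, read 185.6, 190.1 and 196.3 with FP001, 178.0, 195.7 and 186.8 in normal medium, and 139.7 and 150.9 on attachment plates, with no overlap between either low-attachment group and the attachment group. It rose 1.31-fold in the FP001 group (0.39 ± 0.09 on the log2 scale, adjusted p = 0.0133) and 1.29-fold in normal medium (0.36 ± 0.09, adjusted p = 0.0274). S100A4, linked to cell motility, rose 1.76-fold with FP001 (adjusted p = 0.00681) and 1.63-fold in normal medium (0.0206). S100P rose 1.66-fold with FP001 (0.0108) and 1.71-fold in normal medium (0.0132). S100A6, the partner of ANXA11, rose 1.41-fold with FP001 (0.0283), and its log2 fold change in normal medium was 0.37 ± 0.13 (adjusted p = 0.105). S100A11, the partner of ANXA1, had log2 fold changes of 0.04 ± 0.10 with FP001 and 0.01 ± 0.10 in normal medium.

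Several of these calls were lost when 1 array was left out. Without attachment replicate 2, S100A10, S100P and S100A6 missed the threshold with FP001 (adjusted p = 0.108, 0.108 and 0.135), as did S100A10 and S100P in normal medium (0.181 and 0.125). Without attachment replicate 3, S100A4 missed it with FP001 (0.0645) and in normal medium (0.157), as did S100A6 with FP001 (0.108) and S100A10 in normal medium (0.0749). S100A10 in normal medium also missed it without low-attachment replicate 2 or 3 (0.0832 and 0.0712), S100A4 there without low-attachment replicate 1 or 3 (0.0512 and 0.0593), and S100A6 with FP001 without FP001 replicate 1 or 2 (0.064 and 0.0699). Over every kept probe set, S100A10 and S100A4 in normal medium (0.0524 and 0.0527) and S100A6 with FP001 (0.0505) missed it, as did S100A10 in normal medium with the 2 groups alone (0.0539).

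**Figure D4:**
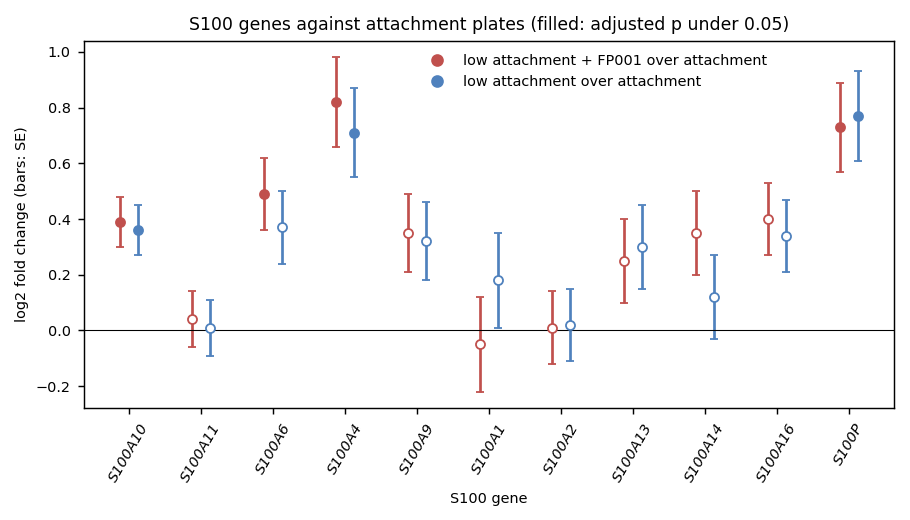
Log2 fold changes of the 11 tested S100 genes (horizontal axis) against attachment plates, with FP001 (red) and in normal medium (blue); bars are SE and filled points passed an adjusted p of 0.05. S100A10, S100A4 and S100P passed in both comparisons, S100A6 with FP001, and S100A11 and S100A2 lay within 0.04 of 0.

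Of 23 genes of plasma membrane repair, 13 were tested, among them the endosomal ATPases of the EHD group. With FP001 against attachment plates 3 rose and 10 did not pass (list median 0.14, against 0.02 for all genes, of which 8.08% were called as higher). In normal medium 2 rose and 11 did not pass (0.04, against 0.01, with 4.31% of all genes called as higher). EHD1 rose 1.43-fold with FP001 (adjusted p = 0.0158), with a log2 fold change of 0.31 ± 0.12 in normal medium (0.135). EHD2, of caveolae, rose 1.17-fold with FP001 (0.0425) and 1.28-fold in normal medium (0.0114), and EHD4 rose 1.42-fold (0.0131) and 1.32-fold (0.0466). The calls of EHD2 with FP001 and of EHD4 in normal medium were lost in 7 of 8 fits that left out 1 array (adjusted p up to 0.201 and 0.222). Both were also lost without a trend (0.0899 and 0.0592), with no filter (0.0589 and 0.0571), over every kept probe set (0.0554 and 0.0866) and with the 2 groups alone (0.0625 and 0.0664). EHD1 with FP001 was lost without attachment replicate 2 (0.126), EHD2 in normal medium without attachment replicate 2 or 3 (0.091 and 0.0537), and EHD4 with FP001 likewise (0.053 and 0.0869).

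Of 13 genes that set or sense phosphatidylserine on the cell surface 6 were tested, and none passed in any comparison, the brightest being the scramblase ANO6 (log2 fold change -0.04 ± 0.08 with FP001 and 0.05 ± 0.08 in normal medium against attachment plates). Of 13 genes of C2-domain or other membrane-docking proteins 9 were tested. MFGE8, a secreted phosphatidylserine binder, fell 1.40-fold with FP001 (adjusted p = 0.00905) and the other 8 did not pass, while in normal medium none of the 9 passed. Of 9 phospholipase A2 and eicosanoid genes 5 were tested, and the lipoxygenase ALOX15 rose 1.55-fold with FP001 (0.0211). It read 26.7 to 36.1 with FP001, but 19.4 and 19.0 on attachment plates, below the medians of those arrays (23.26 and 23.67). ALOX15 thus passed the filter only through low-attachment arrays, and its fold change rests on dim values. SRI (sorcin), a calcium-binding partner of ANXA7, was 1 of 2 tested genes in a list of 6 granule and annexin tail partners, and fell 1.40-fold with FP001 (0.0149) and 1.38-fold in normal medium (0.0263). Among all genes tested, 11.4% were called as lower and 8.08% as higher with FP001, and 5.76% and 4.31% in normal medium. With lists this short, the counts beside those shares give no result about any list. Without attachment replicate 2, MFGE8, ALOX15 and SRI with FP001 missed the threshold (0.0739, 0.101 and 0.0905), as did SRI in normal medium (0.134). Without attachment replicate 3, ALOX15 and SRI with FP001 (0.0891 and 0.0692) and SRI in normal medium (0.118) missed it. ALOX15 was also lost without FP001 replicate 1 (0.0574), and SRI in normal medium without low-attachment replicate 1 or 2 (0.0692 and 0.0622) and over every kept probe set (0.0561). None of the 3 formyl peptide receptor genes passed the filter, and of 9 plasminogen system genes 1 was tested and did not pass.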

How the data were processed

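RNA of A549 cells was read on 9 Affymetrix arrays, using a kit for in vitro transcription from 3' ends, per the labels' protocols. The authors deposited linear intensities, computed with MAS5 per the submitters' processing notes. No source used here gives its settings, its version or the annotation. The table contained 53617 probe sets, of which 16098 had 1 gene symbol in GEO's platform annotation (all matched to RefSeq by gene identifier), and the other 37519 have no name here. The kit is one for arrays of 3' ends, so what part of a transcript a probe set reads is uncertain.

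Log2 intensities, with no pseudocount and no further normalization, were fitted over 8 arrays in 1 model of 3 group means with limma 3.58.1 in R 4.3.3 (eBayes with a trend, 5 residual and 5.6 prior degrees of freedom). Probe sets reaching the array median on at least 3 of 8 arrays were kept, and the brightest stood for each of 10916 genes. Contrasts were two-sided with Benjamini-Hochberg adjustment over these genes, and a gene was called below an adjusted p of 0.05. The number of arrays limits the precision. The fit was tested on simulated data. The named genes were every annexin of the list, the called members of each partner list (or the brightest where none was called), and the 5 genes nearest to the called annexin with the largest change. The copies of ANXA2, S100A11 and the markers in the text were named beside them after their values were seen. The members and lists (S100, membrane repair, phosphatidylserine, C2-domain, phospholipase A2, granule partner, formyl peptide receptor and plasminogen) were chosen with earlier results of these data known.

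Same-numbered arrays of the FP001 and low-attachment groups had deviations from their group means that correlated at 0.483, 0.309 and 0.231 for numbers 1, 2 and 3. Each was over 0.1, so the numbers were taken to pair them. Arrays of unlike number correlated at -0.353 to 0.133. Low-attachment replicate 2 with FP001 replicate 3 (0.133) also lay over 0.1, so that threshold alone does not set same-numbered arrays apart. The pairing comes from the data, not the labels. Attachment replicates 2 and 3 correlated with low-attachment arrays of their number at -0.205 and 0.138. Alternatives were all 9 arrays, quantile normalization, a pseudocount of 16, other filters, every kept probe set, no trend, the 2 groups compared alone, the replicate block and leaving out each array.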

Additional observations from a re-analysis of the deposited data

How the results depend on the processing

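The fall of ANXA3 in normal medium against attachment plates kept its direction in all settings, with log2 fold changes of -1.66 to -1.24 when 1 array was left out. Against the main count of 2 annexins called in normal medium, it was 0 with all 9 arrays, 3 after quantile normalization, 1 over every kept probe set, and 0 to 2 with 1 array left out. Against 1 called with FP001, it was 0 with 9 arrays, 4 after quantile normalization, 0 over every kept probe set, 2 with the replicate block, and 0 to 1 with 1 array left out. Between FP001 and normal medium, where 0 were called, it was 1 with the replicate block and 2 in the block of the 6 low-attachment arrays, an alternative added after seeing the data; the block changed no annexin call in normal medium against attachment plates. In the F-test, with 2 called, it was 0 with 9 arrays, 3 after quantile normalization, 1 with no filter, 1 over every kept probe set, 1 without a trend, and 0 to 2 with 1 array left out. Fewer samples enter when an array is left out and more features are tested over every kept probe set; the cause was not tested otherwise.

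Some signs turned, among annexins for values that were not called. With all 9 arrays the log2 fold change in normal medium was -0.98 for ANXA9, 0.42 for ANXA2 and 2.96 for ANXA1, and that with FP001 was 0.39 for ANXA2. In that fit, added after seeing the data for genes other than annexins, the epithelial marker KRT7 (1.38) and MOB3B (1.04) in normal medium, and ALOX15 (-0.33) and GDF15 (0.16) with FP001, also turned. Quantile normalization gave 0.03 for ANXA1 and the block -0.02 for ANXA11, both in normal medium. With 1 array left out, the range in normal medium was -0.13 to 0.23 for ANXA9, -0.99 to 0.44 for ANXA10 and -0.0011 to 0.07 for ANXA11, and with FP001 against attachment -0.85 to 0.59 for ANXA10. For FP001 over normal medium it was -0.12 to 0.07 for ANXA2, -0.15 to 0.0021 for ANXA4, -0.10 to 0.08 for ANXA5, -0.05 to 0.22 for ANXA6, -0.21 to 0.50 for ANXA10 and -0.02 to 0.10 for ANXA11. Of 520 values of single annexins under alternatives, 474 kept direction and side of the threshold, 24 turned sign, 14 lost a call and 8 gained one. With all 9 arrays every S100 and EHD call was lost (adjusted p = 0.466 in normal medium and 0.473 with FP001), as were those of MFGE8 (0.473) and SRI (0.66 and 0.643).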

Other observations

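The array labelled attachment replicate 1, which followed no other array, read 8 of the 10 annexins outside the range of the other 8 arrays. It listed ANXA1 at 4.14, where the other arrays read 2003 to 2343, and ANXA5 at 6.19, against 1233 to 1586. It listed ANXA9 at 549.7, against 39.9 to 86.2, and ANXA10 at 554.8, against 38.3 to 106.1. Its values of ANXA3 (414.7) and ANXA6 (217.4), the annexins called in the comparisons, lay within the ranges of the other arrays, 107.8 to 423.2 and 212.1 to 388.7. The ANXA3 value lay between the attachment arrays used (341.5 and 423.2), and the ANXA6 value below both (379.4 and 388.7). Since this array followed no other, a value inside these ranges gives no support to either call.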
